A study of Mus musculus with 18 samples.

Results

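The genes that break down haem and handle the iron it releases were followed in the eyecups of *rd1* mice whose retinal pigment epithelium (RPE) had been given extra Nrf2. They are 10 of the 47729 genes in the count table and were chosen by name: the haem oxygenases *Hmox1* and *Hmox2*, the biliverdin reductases *Blvra* and *Blvrb*, the ferritin subunits *Fth1* and *Ftl1*, the iron exporter *Slc40a1*, the transferrin receptor *Tfrc*, transferrin *Trf*, and ferrochelatase *Fech*. All 10 were found and all 10 passed the filter on low counts. Per the labels, RNA came from 9 *rd1* mice at postnatal day 40, with 18 libraries in all. The methods of the study describe fewer *rd1* pairs at this age, beside pairs of wild-type CD1 mice that are not named in these labels, and the pairs of both strains together come to the number here. The labels were followed, and the strain of each mouse was not tested, so every n = 9 below rests on them. The *rd1* allele of *Pde6b* removes rods early in life, and 10 rod markers summed to between 372 and 894 CPM per control eye and between 543 and 972 CPM per Best1-Nrf2 eye, a unit defined below. In each mouse, 1 eye had received 2 adeno-associated viruses (AAV), of which AAV-Best1-Nrf2 carried the human Nrf2 cDNA under the RPE-specific Best1 promoter and AAV-Best1-GFP carried a fluorescent protein under the same promoter (the Best1-Nrf2 group, n = 9). The other eye had received AAV-Best1-GFP alone (the control group, n = 9), so both groups were injected and both expressed GFP. No uninjected eye was compared here. After the retina had been lifted off, the cleaned eyecup was put in an RNA-preserving solution, and RNA was purified from the liquid around it, a step meant to collect the RPE and leave the rest of the eyecup behind. The RNA was amplified before sequencing, and markers of other cell types are given below.

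Haem oxygenase opens the haem ring and gives biliverdin, carbon monoxide and free iron, and biliverdin reductase turns biliverdin into bilirubin. The iron can be stored inside ferritin, a shell of heavy and light subunits, or can leave the cell through ferroportin, the product of *Slc40a1*. Transferrin carries iron between cells and enters them through its receptor, and ferrochelatase closes the circle by putting iron back into a porphyrin to make haem. The RPE takes up outer segments of photoreceptors and lies between them and the choroidal blood, and it makes transferrin itself. *Hmox1* and the ferritin genes are textbook targets of Nrf2.

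Library totals were 18956748 to 44054836 counts in control and 32839893 to 49598700 counts in Best1-Nrf2 eyes, and control replicate 8 was the smallest. Levels are given as CPM, read counts relative to the TMM-scaled total of each library, and eyes were compared within mice by the quasi-likelihood test of edgeR, with p adjusted over 18958 genes. *Nfe2l2*, the mouse gene for Nrf2, averaged 89.7 ± 17.8 CPM (SD, n = 9) in control eyes and, with Best1-Nrf2, 453 ± 147 CPM (SD, n = 9), a log2 difference of 2.29 (SE 0.21, adjusted p = 6.21e-05), where reads of the human cDNA cannot be told from those of the mouse gene. The target *Nqo1*, a quinone reductase, rose by 2.02 on the log2 scale (SE 0.20, adjusted p = 9.58e-05), and 8 of 8 canonical targets of Nrf2 rose. With marker covariates described below, *Nfe2l2* did not pass beside photoreceptor markers (1.89, adjusted p = 0.104), nor *Nqo1* beside macrophage markers (2.18, adjusted p = 0.116). In a principal component analysis, the libraries highest on component 1 (26.3% of variance) were those of the control eyes of mice 3, 5 and 8 and the Best1-Nrf2 eyes of mice 3 and 6. The counts of members and of pathway genes, and the log2 fold changes of the members that passed, are therefore also given without mice 3, 5, 6 and 8.

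Of the 10 genes, 5 were higher in the Best1-Nrf2 eye at an adjusted p under 0.05, set against 3.12% of all genes tested, and 0 were lower, against 1.13%. The 5 were *Hmox1*, *Blvrb*, *Fth1*, *Ftl1* and *Slc40a1*. Each of these was higher in 9 of 9 mice, as were 3.12% of all genes tested. In 3 of them, *Hmox1*, *Blvrb* and *Ftl1*, every Best1-Nrf2 eye lay above every control eye, which held for 1.05% of all genes tested. The median log2 fold change over the 10 was 1.15, and over all genes tested it was -0.03. The count of 5 was the same without mice 3, 5, 6 and 8 and without each mouse in turn, but it was 1 (*Blvrb*) with photoreceptor or with macrophage markers as a covariate. Without mice 3, 5, 6 and 8, *Blvrb* was 4.00 higher on the log2 scale (adjusted p = 0.00173), *Ftl1* 2.20 higher (adjusted p = 0.0362) and *Fth1* 1.92 higher (adjusted p = 0.0399).

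**Figure D1:**
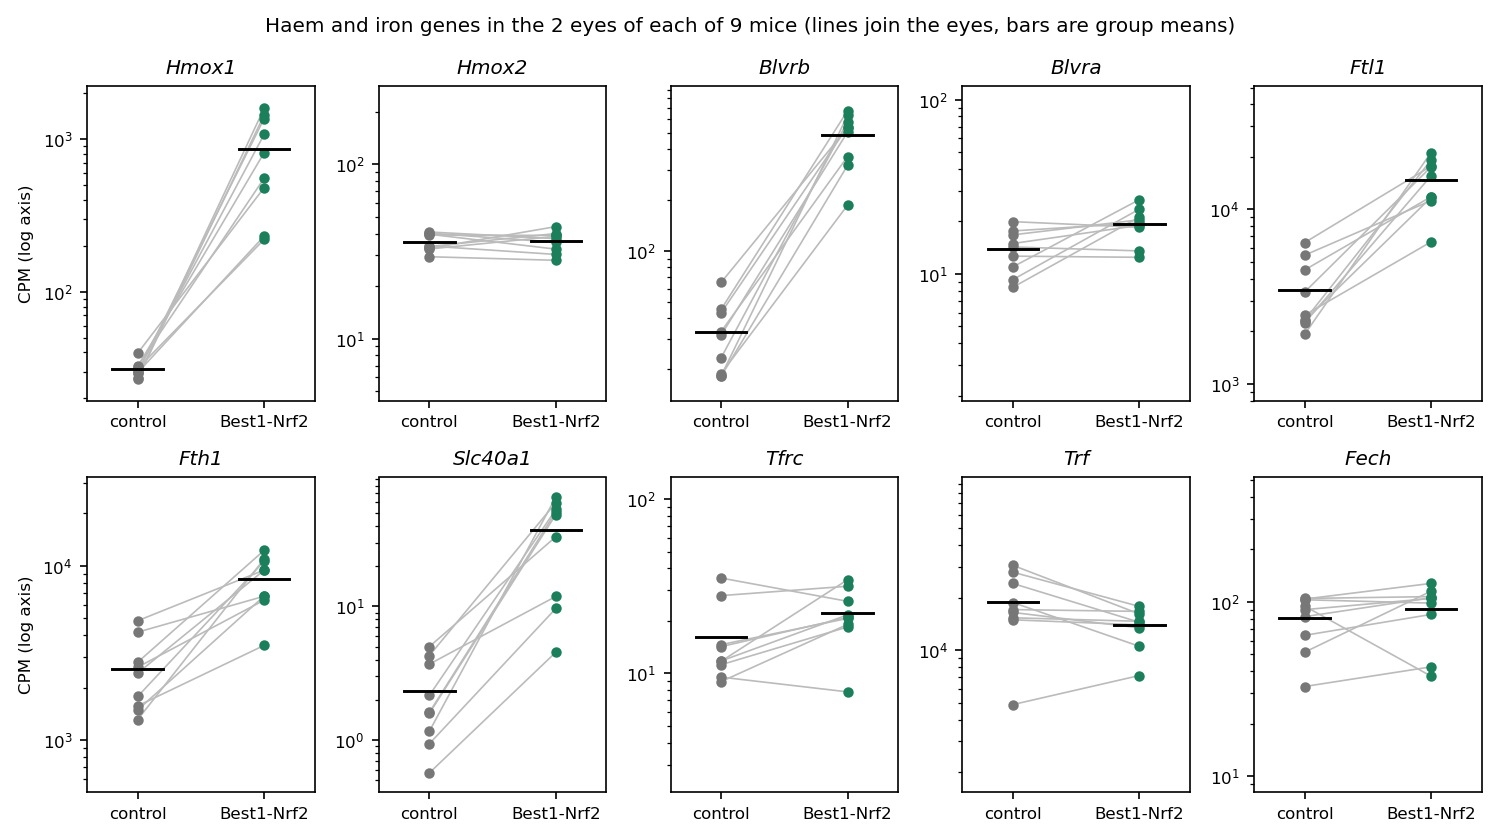
Level of each gene in both eyes of 9 mice, in CPM on a log axis, with a line joining the eyes of a mouse and bars at the group means. All 9 lines climb for *Hmox1*, *Blvrb*, *Ftl1*, *Fth1* and *Slc40a1*, and those of *Hmox2* stay between 28.1 and 43.8 CPM.

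*Hmox1* (ENSMUSG00000005413, chr8:75093621-75100589 of GRCm38, plus strand, protein coding) encodes the inducible haem oxygenase. In the main test it had the largest log2 fold change of the 10, though not with either marker covariate, and its lead over the next gene was not tested. In the control eyes of mice 1 to 9 it stood at 39.6, 30.1, 31.4, 27.2, 29.5, 29.5, 27.0, 32.5 and 32.4 CPM. In the Best1-Nrf2 eyes of the same mice it stood at 480, 1074, 220, 1591, 1364, 231, 1438, 554 and 814 CPM. The groups did not overlap, and the lowest Best1-Nrf2 eye was above the highest control eye by a wide margin. The control mean was 31.03 ± 3.77 CPM (SD, n = 9) and the Best1-Nrf2 mean 863 ± 526 CPM (SD, n = 9). The paired test put the rise at 4.50 on the log2 scale (SE 0.41, adjusted p = 5.50e-05), or 22.7-fold.

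The spread of *Hmox1* differed in size between the groups. Control eyes ranged over 1.47-fold, whereas Best1-Nrf2 eyes ranged over 7.23-fold. The eyes of mice 3 and 6 were the lowest with Best1-Nrf2. These were the Best1-Nrf2 libraries highest on component 1, and they also held the largest summed level of 11 red blood cell markers in that group (5342 and 3636 CPM, against 343 to 1759 CPM in the other 7). The same 2 libraries had the largest share of mitochondrial counts (7.38% and 5.58%, against 1.66% to 3.55%), the largest share of counts in their 10 top genes (18.3% and 18.6%, against 9.51% to 14.3%) and the largest summed level of RPE markers (68222 and 52325 CPM, against 14948 to 24774 CPM). Of the RPE markers, *Ttr* had the highest mean in Best1-Nrf2 eyes (18046 CPM, range 6499 to 54488 CPM), so it weighs most in that sum. *Rpe65* averaged 297 CPM there. The part of these library traits in the *Hmox1* values was not tested. Without mice 3, 5, 6 and 8, the log2 fold change of *Hmox1* was 5.02 (adjusted p = 0.00179).

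*Hmox2* (ENSMUSG00000004070, chr16:4726361-4766742, plus strand), the constitutive haem oxygenase, had close to the same level in all 18 eyes. It ranged from 29.5 to 40.8 CPM in control eyes (median 33.9) and from 28.1 to 43.8 CPM in Best1-Nrf2 eyes (median 37.4). The groups overlapped throughout, and the mean was 35.8 ± 4.2 and 36.2 ± 5.0 CPM (SD, n = 9 each). Its log2 fold change was 0.01 (SE 0.13, adjusted p = 0.992), with a higher value in 3 of 9 mice. The log2 ratio of *Hmox1* to *Hmox2*, which does not depend on how libraries are scaled, was -0.21 ± 0.30 in control and 4.27 ± 1.15 in Best1-Nrf2 eyes (SD, n = 9 each). It was 4.48 ± 1.27 higher in the Best1-Nrf2 eye, in 9 of 9 mice (2-sided exact sign-flip permutation test, adjusted p = 0.0039 over 4 ratios, the smallest that 9 mice allow).

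The biliverdin reductases parted in the same way. *Blvrb* (ENSMUSG00000040466, chr7:27447978-27466144, plus strand) encodes an NADPH-dependent reductase of flavins and biliverdin. In control eyes it ranged from 18.2 to 65.2 CPM with a median of 31.9, and in Best1-Nrf2 eyes from 187 to 676 CPM with a median of 536. The groups did not overlap. The mean was 33.0 ± 15.9 and 483 ± 160 CPM (SD, n = 9 each), and the log2 fold change was 3.91 (SE 0.24, adjusted p = 7.15e-06), or 15.04-fold. The rise was at least 3.04 on the log2 scale in every mouse and reached 5.12 in mouse 4.

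*Blvra* (ENSMUSG00000001999, chr2:127070665-127097084, plus strand), the main adult reductase of biliverdin, ranged from 8.38 to 19.9 CPM in control eyes (median 14.3) and from 12.4 to 26.7 CPM in Best1-Nrf2 eyes (median 19.6). The groups overlapped, and 4 Best1-Nrf2 eyes were above all control eyes. The mean was 13.9 ± 3.9 and 19.4 ± 4.4 CPM (SD, n = 9 each). Its log2 fold change was 0.50 (SE 0.22), which did not pass after adjustment (adjusted p = 0.340), and it was higher in 6 of 9 mice. The differences were uneven between mice: 1.34, 1.28 and 1.33 on the log2 scale in mice 4, 6 and 8, and between -0.11 and 0.35 in the other 6. The log2 ratio of *Blvrb* to *Blvra* rose from 1.16 ± 0.63 to 4.57 ± 0.34, a difference of 3.41 ± 0.51 in 9 of 9 mice (SD, n = 9; exact sign-flip permutation test, adjusted p = 0.0039).

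The 250 bases before the RefSeq start site of *Blvra* and before the upstream of both start sites of *Blvrb* are shown. Both genes are named biliverdin reductases, and they differ in response. They were read from the RefSeq promoter table of GRCm38.p6, and capitals mark a match to the core of the antioxidant response element, the motif that Nrf2 binds with small Maf proteins, searched as TGACNNNGC on both strands.
Blvra, chr2:127070407-127070656, plus strand: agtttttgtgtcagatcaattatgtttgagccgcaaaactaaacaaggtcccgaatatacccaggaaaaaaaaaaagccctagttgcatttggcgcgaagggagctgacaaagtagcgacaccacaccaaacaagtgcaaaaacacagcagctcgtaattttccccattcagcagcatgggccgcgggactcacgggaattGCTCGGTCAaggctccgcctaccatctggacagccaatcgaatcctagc
Blvrb, chr7:27447728-27447977, plus strand: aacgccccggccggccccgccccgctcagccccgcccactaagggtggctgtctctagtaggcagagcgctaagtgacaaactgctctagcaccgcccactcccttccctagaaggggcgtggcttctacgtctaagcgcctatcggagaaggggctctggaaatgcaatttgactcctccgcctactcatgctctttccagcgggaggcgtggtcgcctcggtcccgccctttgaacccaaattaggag

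The window of *Blvra* held 1 match, which reads TGACCGAGC on the minus strand and begins 49 bases before the start site. No match was found in either window of *Blvrb*, the reductase that rose, of which the other lies at chr7:27452168-27452467. Over all 32851 windows of this table, which run from 250 bases before to 50 bases after a start site, 12.4% held the motif. Windows existed for 6 of the 10 genes, 11 windows in all, and the 1 match in *Blvra* was the only match among them. *Hmox1*, *Slc40a1*, *Trf* and *Fech* were not in the table. A match is a run of letters and not a bound site, and sites farther from the start were not searched.

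Ferritin, the iron store of the cell, is built from light and heavy subunits. *Ftl1* (ENSMUSG00000050708, chr7:45457944-45459884, minus strand) encodes the light subunit, which helps iron to form its mineral core. In control eyes it ranged from 1921 to 6450 CPM (median 2475), and in Best1-Nrf2 eyes from 6517 to 21186 CPM (median 15581). The groups did not overlap, although the margin was narrow, because the control eye of mouse 5 stood at 6450 CPM and the Best1-Nrf2 eye of mouse 1 at 6517 CPM. Its mean rose from 3444 ± 1641 to 14719 ± 4693 CPM (SD, n = 9 each). That is 2.15 on the log2 scale (SE 0.32, adjusted p = 0.0019), or 4.43-fold.

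*Fth1* (ENSMUSG00000024661, chr19:9980598-9985098, plus strand) encodes the heavy subunit, which oxidises iron for storage. It ranged from 1314 to 4848 CPM in control eyes (median 2427) and from 3500 to 12281 CPM in Best1-Nrf2 eyes (median 9451). Of the Best1-Nrf2 eyes, 8 of 9 were above all control eyes, and that of mouse 1 was not. The mean rose from 2559 ± 1233 to 8452 ± 2799 CPM (SD, n = 9 each), which is 1.77 on the log2 scale (SE 0.29, adjusted p = 0.00377), or 3.42-fold. Ferritin of both kinds took 0.377% to 1.01% of all counts in control eyes and 1.16% to 3.28% in Best1-Nrf2 eyes.

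The light subunit rose more than the heavy subunit. The log2 ratio of *Ftl1* to *Fth1* was 0.44 ± 0.32 in control and 0.81 ± 0.18 in Best1-Nrf2 eyes, a difference of 0.37 ± 0.17 in 9 of 9 mice (SD, n = 9; exact sign-flip permutation test, adjusted p = 0.0039). The ratio of both eyes of mouse 8 was below that of the other eyes of its group, and without mouse 8 the groups would still have overlapped. Of the 31-base words of *Ftl1*, 57.7% also occur in other annotated genes, chiefly in processed copies such as *Ftl1-ps1*, so its counts are uncertain to that extent. *Ftl1-ps1* itself held at most 0.236% of the level of *Ftl1* in any library.

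*Slc40a1* (ENSMUSG00000025993, chr1:45908068-45926523, minus strand) encodes ferroportin, the known exporter of free iron. Its control level was low, at 5.01, 1.17, 0.57, 1.61, 1.59, 0.94, 2.17, 3.71 and 4.29 CPM in mice 1 to 9, and the lowest of these rests on 16 counts. Its level in the Best1-Nrf2 eyes was 33.2, 65.7, 4.55, 51.0, 48.7, 9.66, 53.1, 11.9 and 59.7 CPM. In 8 of 9 mice the Best1-Nrf2 eye was above all control eyes, and that of mouse 3 fell within their range while remaining above its own control eye. The mean was 2.34 ± 1.60 and 37.5 ± 23.4 CPM (SD, n = 9 each), and the log2 fold change was 3.89 (SE 0.43, adjusted p = 0.000231), or 14.9-fold. The 3 lowest Best1-Nrf2 values were those of mice 3, 6 and 8, whose Best1-Nrf2 libraries were the 3 highest of that group on component 1. Without mice 3, 5, 6 and 8, the log2 fold change was 4.39 (adjusted p = 0.00412).

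*Tfrc* (ENSMUSG00000022797, chr16:32608920-32632794, plus strand), the receptor that brings transferrin-bound iron into cells, ranged from 8.98 to 35.2 CPM in control eyes (median 11.8) and from 7.83 to 34.5 CPM in Best1-Nrf2 eyes (median 20.9). The groups overlapped over their whole range. The mean was 16.1 ± 9.1 and 22.3 ± 7.8 CPM (SD, n = 9 each), and the log2 fold change of 0.53 (SE 0.21) did not pass (adjusted p = 0.293), with a higher value in 7 of 9 mice. The export gene and the import gene thus moved by different amounts: the log2 ratio of *Slc40a1* to *Tfrc* went from -2.90 ± 0.84 to 0.40 ± 1.18, a difference of 3.31 ± 0.86 in 9 of 9 mice (SD, n = 9; exact sign-flip permutation test, adjusted p = 0.0039).

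**Figure D2:**
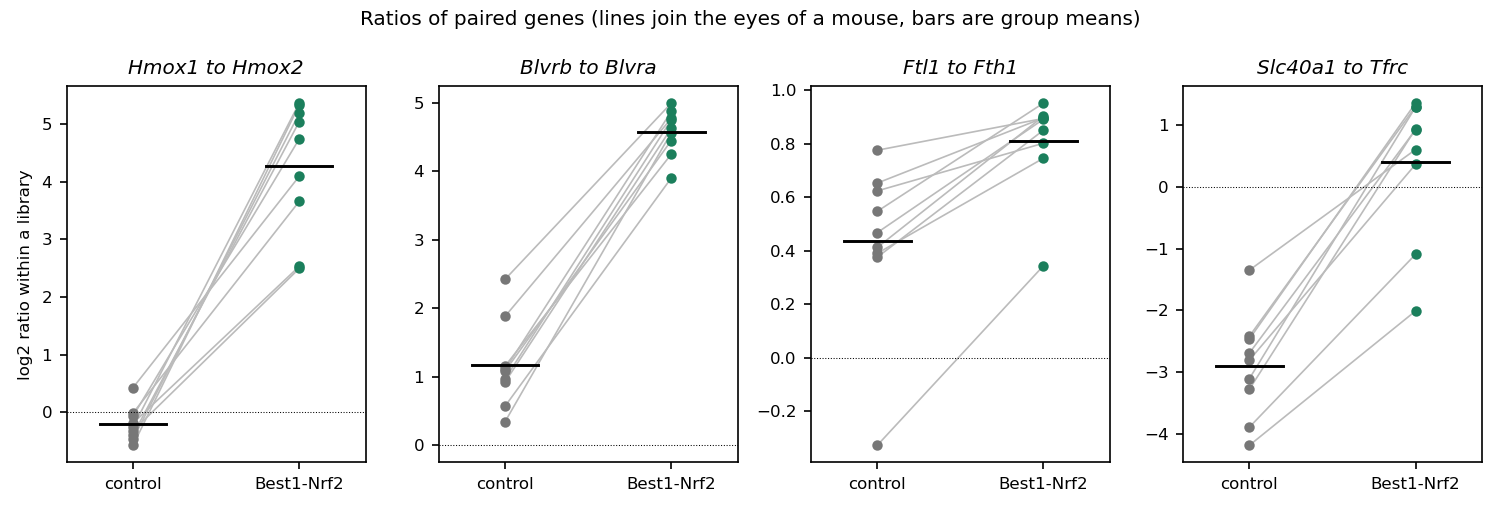
Log2 ratio of the levels of paired genes within each library, with a line joining the eyes of a mouse and bars at the group means. All 9 mice climb in each panel, by a mean of 4.48 for *Hmox1* to *Hmox2*, 3.41 for *Blvrb* to *Blvra*, 0.37 for *Ftl1* to *Fth1* and 3.31 for *Slc40a1* to *Tfrc*.

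The messages of ferritin, ferroportin and the transferrin receptor carry iron-responsive elements. These are hairpins bound by the iron regulatory proteins when iron is scarce, which blocks translation from a 5′ UTR and slows decay from a 3′ UTR, so RNA levels alone do not give the protein levels of these genes. They are shown because they are what the storage, export and uptake genes have in common. The search asked for a bulged C, 5 bases that pair with 5 bases across the loop, G with U pairs allowed, and a loop of CAGTG and a base other than G, in the GENCODE M21 transcripts. The 6-base loop is in capitals, with 11 bases on each side, and coordinates are of GRCm38.
Fth1, 5′ UTR, chr19:9982733-9982760, plus strand: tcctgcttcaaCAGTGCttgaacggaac
Ftl1, 5′ UTR, chr7:45459779-45459806, minus strand: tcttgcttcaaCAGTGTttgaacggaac
Slc40a1, 5′ UTR, chr1:45925465-45925492, minus strand: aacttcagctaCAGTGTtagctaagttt
Tfrc, 3′ UTR, chr16:32631220-32631247, plus strand: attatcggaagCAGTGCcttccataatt
Tfrc, 3′ UTR, chr16:32631599-32631626, plus strand: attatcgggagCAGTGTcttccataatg
Tfrc, 3′ UTR, chr16:32631664-32631691, plus strand: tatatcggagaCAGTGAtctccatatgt
Tfrc, 3′ UTR, chr16:32631711-32631738, plus strand: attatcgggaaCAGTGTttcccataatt

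Such a hairpin was found in 4 of the 10 genes, each time in a UTR. Anywhere in a protein-coding transcript, coding sequence included, it was found in 1.01% of 21877 genes. The 10 genes were chosen by name and include messages known for such hairpins, so the shares are not a test. *Fth1*, *Ftl1* and *Slc40a1*, each with 1 hairpin in the 5′ UTR, all rose, while *Tfrc*, with 4 found in its 3′ UTR, did not pass the test. The stem and loop of *Fth1* and *Ftl1* are nearly the same sequence, whereas the stems of the *Tfrc* hairpins differ among themselves. *Hmox1* and *Blvrb*, which also rose, held no such hairpin.

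*Trf* (ENSMUSG00000032554, chr9:103204001-103230444, minus strand), the plasma iron carrier, ranged from 4877 to 30677 CPM in control eyes (median 17102) and from 7158 to 17830 CPM in Best1-Nrf2 eyes (median 14470). The ranges overlapped, and the lowest eye in each group was that of mouse 8. Its mean was 18929 ± 7775 and 13877 ± 3283 CPM (SD, n = 9 each), and the log2 fold change of -0.34 (SE 0.25) did not pass (adjusted p = 0.671), although the Best1-Nrf2 eye was the lower in 8 of 9 mice. Of its 31-base words, 63.8% occur in other annotated genes, chiefly *Gm20425*, which held at most 0.655% of the level of *Trf*.

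*Fech* (ENSMUSG00000024588, chr18:64452914-64490251, minus strand), the last enzyme of haem synthesis, ranged from 32.7 to 105 CPM in control eyes (median 90.3) and from 37.5 to 128 CPM in Best1-Nrf2 eyes (median 105). The groups overlapped, with means of 80.8 ± 25.8 and 91.5 ± 31.4 CPM (SD, n = 9 each). Its log2 fold change was 0.17 (SE 0.21, adjusted p = 0.854), with a higher value in 7 of 9 mice. The values below 55 CPM were those of the control eyes of mice 3 and 5 and the Best1-Nrf2 eyes of mice 3 and 6, which are 4 of the 5 libraries highest on component 1.

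Levels of different genes can be compared only per length, here as CPM per kb of merged exons, a length that is long for genes with many annotated isoforms or retained introns. In control eyes the order of mean levels was *Trf* (5701 CPM per kb), *Ftl1* (2570), *Fth1* (738), *Hmox1* (17.7), *Hmox2* (16.2), *Blvrb* (11.9), *Fech* (5.84), *Blvra* (5.67), *Tfrc* (2.61) and *Slc40a1* (0.26). Neighbours were compared within libraries by a 2-sided exact sign-flip permutation test adjusted over 18 comparisons, a test added after the values were seen. *Hmox1* was not separable from *Hmox2* (adjusted p = 0.272), nor *Blvrb* from *Fech* (adjusted p = 0.0603), nor *Fech* from *Blvra* (adjusted p = 0.980). In Best1-Nrf2 eyes the order was *Ftl1* (10984 CPM per kb), *Trf* (4180), *Fth1* (2436), *Hmox1* (493), *Blvrb* (174), *Hmox2* (16.3), *Blvra* (7.94), *Fech* (6.61), *Slc40a1* (4.17) and *Tfrc* (3.60). There, *Blvra* and *Fech* (adjusted p = 0.338) and *Slc40a1* and *Tfrc* (adjusted p = 0.773) were not separable. *Ftl1* was above *Trf* in 8 of 9 Best1-Nrf2 eyes (adjusted p = 0.0141), and *Trf* was above *Ftl1* in 8 of 9 control eyes (adjusted p = 0.0141).

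**Figure D3:**
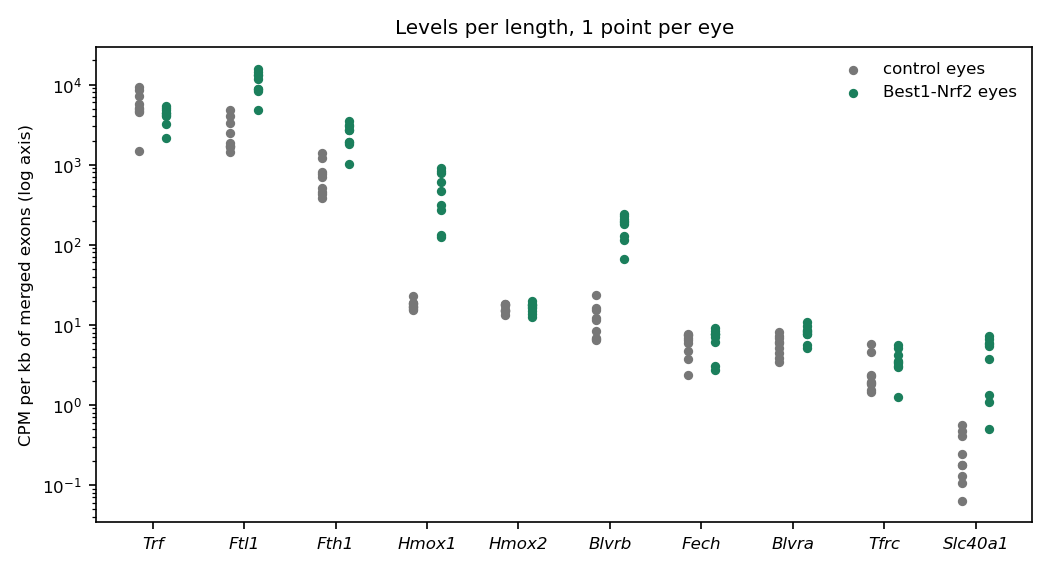
Level per length of each gene, in CPM per kb of merged exons on a log axis, with 1 point per eye, grey for control and green for Best1-Nrf2. *Hmox1* lay beside *Hmox2* in control eyes (17.7 and 16.2 CPM per kb) and far above it in Best1-Nrf2 eyes (493 and 16.3 CPM per kb).

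Within the 9 Best1-Nrf2 eyes, the genes were set against *Nfe2l2*, which ranged from 275 to 704 CPM, in 10 relations on the log2 scale. *Hmox1* followed it in rank, with Spearman's rho 0.88 (exact permutation p = 0.0031, adjusted p = 0.0308) and Pearson's r 0.78 (exact permutation p = 0.0168, adjusted p = 0.168), and r was 0.72 without the 2 eyes farthest from the median of *Nfe2l2*. The eye of mouse 3 stood apart, with a middle level of *Nfe2l2* (428 CPM) and the lowest *Hmox1* (220 CPM). None of the other 9 genes passed after adjustment. For *Slc40a1*, r was 0.59 (exact permutation p = 0.0953, adjusted p = 0.477) and rho 0.63 (exact permutation p = 0.0760, adjusted p = 0.253), with r 0.33 without the 2 farthest eyes. For *Fech*, r was 0.53 (exact permutation p = 0.147, adjusted p = 0.488) and rho 0.73 (exact permutation p = 0.0311, adjusted p = 0.156), with r 0.27 without them. For *Ftl1*, r was 0.39 (exact permutation p = 0.305, adjusted p = 0.762) and rho 0.35 (exact permutation p = 0.359, adjusted p = 0.728), and without the 2 farthest eyes r became 0.99. Leaving out the same 2 eyes moved r from 0.19 to 0.97 for *Fth1*, from 0.21 to 0.85 for *Blvrb*, from 0.09 to 0.86 for *Blvra* and from -0.05 to 0.72 for *Hmox2*, and it turned from 0.32 to -0.35 for *Tfrc* and from 0.17 to -0.53 for *Trf*. These values depend on those eyes, and that none of the 7 genes passed holds for all 9 eyes together.

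**Figure D4:**
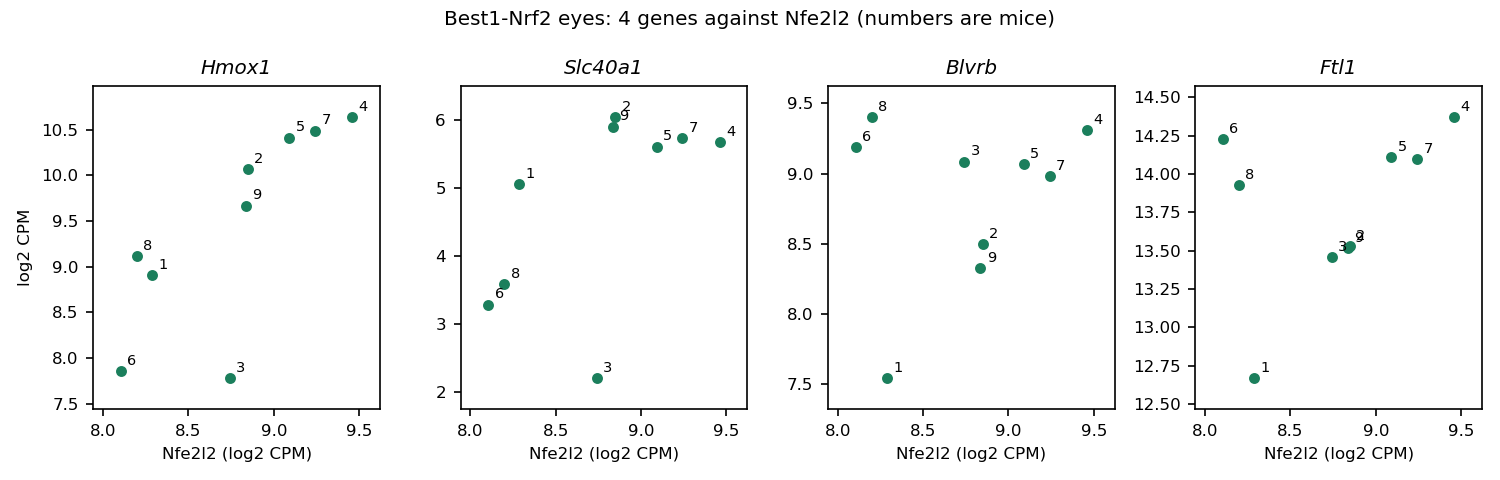
Levels of *Hmox1*, *Slc40a1*, *Blvrb* and *Ftl1* against *Nfe2l2* in the 9 Best1-Nrf2 eyes, both in log2 CPM, with the number of each mouse. *Hmox1* climbs with *Nfe2l2* (rho 0.88) apart from mouse 3, while mice 6 and 8 combine low *Nfe2l2* with high *Blvrb*.

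Some genes varied together or opposite to each other between mice of a group. Over 90 relations between members (45 in each group, n = 9 eyes each, computed after the values were seen), 5 in control and 5 in Best1-Nrf2 eyes passed after adjustment on both r and rho, of which 3 in control and 1 in Best1-Nrf2 eyes were negative. The pairs *Blvrb* with *Fth1* and *Blvra* with *Ftl1* passed in both groups. *Blvrb* and *Fth1* had r 0.97 and rho 0.97 in control eyes (exact permutation adjusted p = 0.0022 and 0.0074; r 0.94 without the 2 farthest) and r 0.94 and rho 0.87 in Best1-Nrf2 eyes (exact permutation adjusted p = 0.0152 and 0.0451; r 0.82 without the 2 farthest). *Blvra* and *Ftl1* had r 0.83 and rho 0.90 in control eyes (exact permutation adjusted p = 0.0349 and 0.0261; r 0.82 without the 2 farthest) and r 0.87 and rho 0.90 in Best1-Nrf2 eyes (exact permutation adjusted p = 0.0152 and 0.0261; r 0.75 without the 2 farthest). *Fth1* and *Fech* ran opposite ways in control eyes, with r -0.88 and rho -0.97 (exact permutation adjusted p = 0.0152 and 0.0074; r -0.90 without the 2 farthest). The eyes of mice 3 and 5, high on component 1, had the most *Fth1* and the least *Fech* in that group, and the part of this in the relation was not tested. The control eyes of mice 3, 5 and 8, the highest of that group on component 1, also had its highest levels of both *Blvrb* and *Fth1*. The part of this in the relation of *Blvrb* with *Fth1* was not tested either.

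Over all 18 libraries, the genes with a pattern most like that of *Hmox1* were *Gclm*, a subunit of the enzyme that starts glutathione synthesis (Pearson's r 0.99), *Srxn1*, sulfiredoxin (0.99), and *Lix1* (0.99). These values hold the difference between the groups and are given as a description. *Gclm* rose with a log2 fold change of 3.43, *Srxn1* with 5.56 and *Lix1* with 2.90, each higher in 9 of 9 mice.

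The rest of the pathway was followed in 7 lists of 73 symbols, of which 66 were tested. Here 5 were higher (7.58%, against 3.12% of all genes tested), 1 was lower (1.52%, against 1.13%) and 60 did not pass, and the median log2 fold change was 0.04, against -0.03. Without mice 3, 5, 6 and 8, 4 of the 66 passed. None of the 12 genes of haem synthesis passed, and the one with the highest mean CPM, *Alad*, which makes porphobilinogen, was 526 ± 127 and 508 ± 81 CPM in control and Best1-Nrf2 eyes (SD, n = 9 each; log2 fold change -0.02, adjusted p = 0.983). Likewise none passed among 5 genes of ferritin handling (*Pcbp1*, which delivers iron to ferritin, log2 fold change 0.17, adjusted p = 0.695), 4 of iron sensing (*Epas1*, a hypoxia-inducible factor, log2 fold change -0.14, adjusted p = 0.824), or 14 of mitochondrial iron and iron-sulfur clusters (*Isca1*, an assembly factor of such clusters, log2 fold change -0.03, adjusted p = 0.977).

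The 6 genes that passed belong to the lists of haem transport, iron uptake and the axis of iron export and hepcidin. *Slc11a1*, a metal transporter of phagosomes, ranged from 2.14 to 7.87 CPM in control and from 39.7 to 280 CPM in Best1-Nrf2 eyes without overlap (log2 fold change 4.81, SE 0.42, adjusted p = 3.90e-05), a larger estimate than that of *Hmox1*. *Hfe*, a partner of the transferrin receptor and the gene of hereditary haemochromatosis, ranged from 13.5 to 36.0 CPM and from 76.2 to 374 CPM, also without overlap (log2 fold change 2.81, SE 0.24, adjusted p = 2.85e-05). *Pgrmc1*, a haem-binding membrane protein, went from 328 ± 71 to 1372 ± 654 CPM (SD, n = 9 each; log2 fold change 1.94, adjusted p = 0.000277). *Steap2*, a metalloreductase, had a log2 fold change of 1.30 (adjusted p = 0.0114), and all of these 4 genes were higher in 9 of 9 mice. None of the 4 passed with photoreceptor markers as a covariate (adjusted p 0.0792 to 0.553) or with macrophage markers (adjusted p 0.0666 to 0.959), and the log2 fold change of *Steap2* was 0.64 with the former. Over the 20 alternative fits, covariates included, log2 fold changes were 1.82 to 2.07 for *Pgrmc1* and 2.49 to 3.01 for *Hfe*. They were 3.46 to 5.52 for *Slc11a1* and 0.64 to 1.54 for *Steap2*.

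*Heph*, hephaestin, the ferroxidase that works beside ferroportin, was 1.48 higher on the log2 scale (SE 0.33, adjusted p = 0.0218) and was higher in 8 of 9 mice. *Flvcr2*, a membrane transporter first described as a haem importer, was the only gene of these lists that passed as lower. It went from 281 ± 173 to 141 ± 54 CPM (SD, n = 9 each) and was lower in 8 of 9 mice. The difference was -0.83 on the log2 scale (SE 0.19, adjusted p = 0.0296). Neither call passed with a marker covariate, and both were also lost in other fits. Over the 20 alternative fits the log2 fold change ran from 0.75 to 1.70 for *Heph* and from -1.40 to -0.68 for *Flvcr2*, so neither sign turned. Without the replicate block, the adjusted p was 0.0833 for *Heph* and 0.188 for *Flvcr2*. Without mice 3, 5, 6 and 8, it was 0.109 and 0.0899. Leaving out a single mouse took the call away for *Heph* with mouse 2, 3, 4, 5 or 7 (adjusted p 0.0532 to 0.0670) and for *Flvcr2* with mouse 1, 2, 3, 4, 5, 7 or 9 (adjusted p 0.0575 to 0.108).

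**Figure D5:**
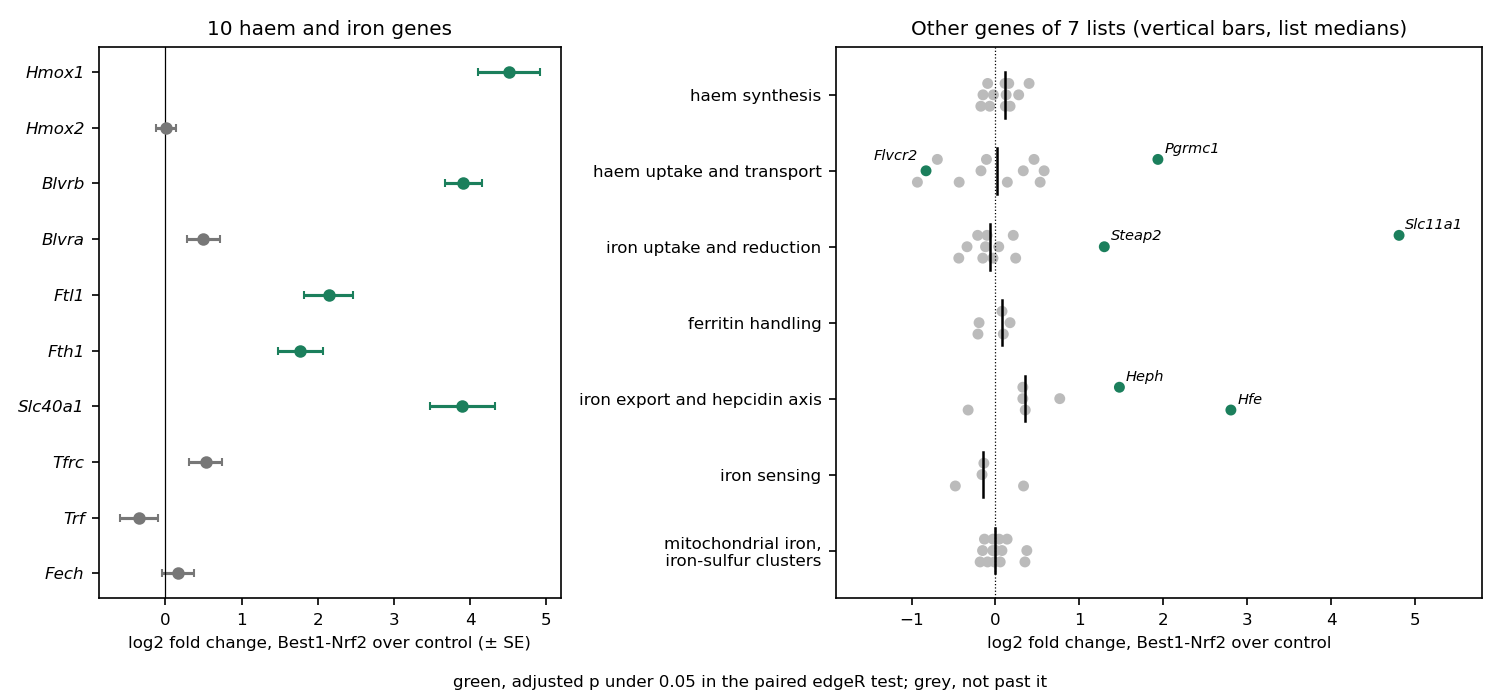
Log2 fold change of Best1-Nrf2 over control eyes in the paired test, with SE for the 10 genes on the left and 1 point per gene for the 7 pathway lists on the right, where black bars are list medians. Green marks an adjusted p under 0.05: 5 of 10 genes on the left, and *Flvcr2*, *Pgrmc1*, *Slc11a1*, *Steap2*, *Heph* and *Hfe* on the right.

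Markers of cell types were read in the same libraries. In such bulk samples, fewer cells of a type and less RNA per cell cannot be told apart. Of 14 RPE markers, 0 were higher and 5 were lower (median log2 fold change -0.44), among them *Rpe65*, the isomerase of the visual cycle (-2.81, adjusted p = 0.000241). All 8 cone markers were lower (median -3.98), with *Arr3*, cone arrestin, at -4.80 (adjusted p = 0.000982). With photoreceptor markers as a covariate, *Rpe65* was -1.49 (adjusted p = 0.149) and *Arr3*, itself 1 of the genes in that covariate, -1.16 (adjusted p = 0.186). With macrophage markers they were -2.99 (adjusted p = 0.171) and -4.18 (adjusted p = 0.534). Of 8 red blood cell markers tested, none passed, and their summed level ranged from 295 to 3173 CPM in control and from 343 to 5342 CPM in Best1-Nrf2 eyes, with *Hbb-bs*, a globin gene, at 0.37 (adjusted p = 0.865).

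Macrophages break down haem and use *Hmox1*, *Slc40a1* and *Slc11a1*, and of 16 markers of macrophages and microglia, 9 were higher (median log2 fold change of the list, 1.52) and none was lower. In 9 of 9 mice the mean log2 level of the list was above that of the control eye, but the summed CPM was lower in mouse 1 (508 in the control and 302 in the treated eye) and mouse 4 (268 and 158). Among those that rose, named after their values were seen, were *C1qa* (1.93), *Tyrobp* (2.01), *P2ry12* (2.45) and *Adgre1* (2.28). *Csf1r*, the growth factor receptor of these cells, had the opposite sign and did not pass (log2 fold change -0.97, adjusted p = 0.113), although it passed as lower with DESeq2 (adjusted p = 0.0156), and at a mean of 136 CPM in control eyes it made up more of the summed CPM of that group than any other marker of the list. Others of the list that did not pass include *Ptprc* (log2 fold change -0.12) and *Itgam* (0.04). The summed level ranged from 165 to 508 CPM in control and from 158 to 714 CPM in Best1-Nrf2 eyes, and no marker of the list was at 0 in all libraries. With the mean of the macrophage markers as a covariate, the log2 fold changes were 4.55 for *Hmox1*, 4.31 for *Blvrb*, 2.03 for *Fth1*, 2.33 for *Ftl1* and 4.64 for *Slc40a1*, and only *Blvrb* kept an adjusted p under 0.05 (0.0186, against 0.0939 to 0.636 for the other 4). With rod and cone markers as the covariate they were 3.95, 4.41, 2.40, 3.00 and 3.29, and again only *Blvrb* passed (adjusted p = 0.00931, against 0.0798 to 0.124). Under these covariates 44 and 43 genes passed in all. Of the remaining lists, 1 of 8 rod markers was higher and 1 lower, 1 of 8 Müller glia markers was lower (*Rlbp1*, which is also among the 5 RPE markers above), 1 of 8 fibroblast markers was higher, and none of 8 endothelial or 6 melanocyte markers passed.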

How the data were processed

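RNA of 18 eyecups (9 *rd1* mice, both eyes) was analysed. Per the methods, reads were placed on mm10 (Ensembl release 91) by STAR and counted by featureCounts, and Salmon (version 0.8.1 in the submitters' processing notes) gave separate estimates for DESeq2. The table deposited by the authors holds expected counts per gene, unscaled and rounded to whole numbers; which counter made it is not given in the sources used here, and the unit was inferred from the values. The kit used no molecular identifiers, so PCR copies count as reads. Libraries were sequenced in separate runs, which the labels do not assign to libraries, so no term for it was fitted.

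Genes kept by filterByExpr (18958, with 99.87% of counts) were TMM-scaled and tested by edgeR 4.0.16 (R 4.3.3, quasi-likelihood F test), with mouse as a block and Benjamini-Hochberg adjustment at 0.05. Log2 CPM used a prior count of 2. The script was tested on simulated data. Pairs come from the animal number in the labels; the eyes of a mouse correlated by -0.37 to 0.64 after group means were removed (median -0.00095). No pair of libraries of a group was a duplicate (chi-square per degree of freedom at least 44.5 over 72 pairs). P-values for log ratios and correlations are exact permutation values. Alternatives were no block, other scalings and filters, DESeq2 1.42.0, limma 3.58.1 voom, an adjusted p of 0.1, marker covariates and leaving out mice; leaving out mice 3, 5, 6 and 8 together was added after the data were seen.

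Members, lists and tests were chosen with earlier results of these data known. Named by rule in the text are the 10 members, *Nfe2l2*, *Nqo1*, up to 4 genes of each pathway list with the largest change past the threshold or else its most abundant gene, *Rpe65*, *Arr3*, *Csf1r*, *Hbb-bs*, and the 3 genes most like *Hmox1*. *Ftl1-ps1* and *Gm20425* were added for shared sequence. The markers *C1qa*, *Tyrobp*, *P2ry12*, *Adgre1*, *Ptprc*, *Itgam*, *Rlbp1* and *Ttr* were named after their values were seen. *Hfe2* and *Hjv* in the lists are names of 1 gene. Not tested were *Hp*, *Ftmt*, *Hephl1*, *Hamp*, *Hamp2*, *Hjv* and *Tmprss6*. Coordinates are from GENCODE M21 on GRCm38, the assembly that mm10 denotes, another release than the authors'. Shared sequence is the percentage of 31-base words of a gene found in other annotated transcripts on the same strand. Counting error only is covered by the depth given.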

Additional observations from a re-analysis of the deposited data

Results flagged for a closer look

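In 28 groups of 9 eyes (10 genes and 4 ratios in each group), 5 held an eye whose gap to the next was larger than Dixon's 95% critical value, where chance gives 1.4. The control eye of mouse 1 had an *Hmox1* level of 5.31 log2 CPM, above the other control eyes. The other 4 were all eyes of mouse 8. Its Best1-Nrf2 eye had a *Tfrc* level of 2.98 log2 CPM, and its control eye, the smallest library, a *Trf* level of 12.25 log2 CPM, each below the rest of the group. Its log2 ratio of *Ftl1* to *Fth1* was -0.33 in the control eye and 0.34 in the Best1-Nrf2 eye, the lowest of each group, while the difference between its eyes was 0.67, also higher with Best1-Nrf2.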

How the results depend on the processing

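The main test called 806 genes, 5 of the 10 members and 6 pathway genes. DESeq2 called 1478 genes, the photoreceptor covariate 43 and the macrophage covariate 44, and 494 genes, 5 members and 4 pathway genes were called without mice 3, 5, 6 and 8. Under each covariate, 1 member (*Blvrb*) and 0 pathway genes passed. Both covariates moved with the treatment, so these fits cannot tell the group from the marker levels. Leaving out single mice gave 540 to 1046 genes, 5 members throughout and 4 to 7 pathway genes. Without the replicate block, 742 genes were called, of which 647 were shared with the paired fit, and of the named genes *Heph* and *Flvcr2* lost their call. Without mice 3, 5, 6 and 8 the ratio differences were 5.09 (*Hmox1* to *Hmox2*), 3.62 (*Blvrb* to *Blvra*), 0.27 (*Ftl1* to *Fth1*) and 3.81 (*Slc40a1* to *Tfrc*), at p = 0.0625, the smallest an exact sign-flip permutation test of 5 mice allows. Signs turned only for log2 fold changes that had not passed. *Hmox2* was -0.034 with upper-quartile scaling, -0.0094 where each library had to hold 10 counts and -0.085 without mice 3, 5, 6 and 8, and ranged from -0.038 to 0.070 over single mice left out. With the photoreceptor covariate *Trf* was 0.21, *Fech* -0.52, *Alad* 0.52 and *Isca1* 0.24, and with the macrophage covariate *Fech* was -0.16. Over single mice left out, *Alad* ranged from -0.12 to 0.090 and *Isca1* from -0.11 to 0.094. The cause of these shifts was not tested. The lowest control level of *Slc40a1* rests on 16 counts, so its fold change depends on few reads.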
